A study of Mus musculus with 5 samples.

Results

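The genes described here are 38 members of the replication and mitosis program, chosen by symbol from the 28693 features of the series, and all 38 were found. They were divided by role into 17 replication members, which act before and during DNA synthesis, and 21 mitosis members, which act in chromosome segregation and its control. The rule names the members by symbol and sets no threshold on a measured value. They were read in 5 droplet libraries of single lung cells from mice of the genotype *Ms4a3-CreER;R26-tdT*. Bleomycin had been given 3, 7, 14 or 28 days earlier for 4 of the libraries, and PBS (sham) for the other. All groups share the genotype, on a mixed C57BL6/129 background. In it, tamoxifen-induced Cre under the *Ms4a3* locus switches on the tdT reporter in cells that express *Ms4a3* and in their progeny. How many lungs entered each library is not given in the sources used here, so every difference between time points compares single libraries and was not tested.

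In a dividing cell, the transcription factors of the E2F family switch on replication genes at the entry into S phase. The mitosis genes follow later, when the MuvB complex, with B-Myb and FoxM1, acts at a promoter element named CHR, often together with CCAAT boxes bound by NF-Y. Cells outside the cycle keep both sets low. Alveolar macrophages (AMs), the resident macrophages of the air spaces, maintain themselves in the adult lung largely by local division, whereas interstitial macrophages (IMs) and monocytes of the injured lung are supplied in large part from the blood.

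RefSeq promoters, spanning 250 bases before to 50 after the start of transcription in GRCm38.p6, were found for 33 of the 38 members (*2810417H13Rik* under its current symbol *Pclaf*), and none for *Mcm4*, *Gins2*, *Ccna2*, *Aurkb* and *Tpx2*. Both strands were searched for CCAAT, for the CHR letters TTTGAA and TTCGAA, and for the E2F letters TTTCCCGC, TTTCGCGC, TTTGCCGC and TTTGGCGC. A match describes the letters in this window only and is not a measured binding site. The 16 promoters of 15 replication members held an E2F match in 56.25%, against 5.26% of the 19 promoters of 18 mitosis members and 2.26% of all 32851 promoters of the same length. The CHR letters lay in 78.9% of the mitosis promoters, 12.5% of the replication promoters and 19.2% of all promoters. CCAAT was common in both roles, at 89.5% of the mitosis promoters and 68.75% of the replication promoters, against 37.4% of all promoters. All 15 mitosis promoters with CHR letters also held CCAAT. The pair was present in 12.5% of the replication promoters and 7.52% of all promoters. The 2 promoters of *Prc1* overlap each other. Of the 35 promoters, 3 had overlapping matches of the same motif and 2 overlapping matches of different motifs.

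The 6 promoters printed here show both arrangements, each on the strand of its gene, with every match in capitals. *Mcm5* and *Mcm6* encode subunits of the replicative helicase, and *2810417H13Rik* encodes a factor that binds the PCNA clamp. Their promoters hold E2F and CCAAT letters and no CHR letters. *Top2a* encodes the topoisomerase that untangles chromosomes, *Ube2c* a ubiquitin-conjugating enzyme and *Cdc20* an activator of the anaphase-promoting complex. Their promoters hold CHR and CCAAT letters and no E2F letters.
Mcm5, chr8:75109259-75109558, plus strand: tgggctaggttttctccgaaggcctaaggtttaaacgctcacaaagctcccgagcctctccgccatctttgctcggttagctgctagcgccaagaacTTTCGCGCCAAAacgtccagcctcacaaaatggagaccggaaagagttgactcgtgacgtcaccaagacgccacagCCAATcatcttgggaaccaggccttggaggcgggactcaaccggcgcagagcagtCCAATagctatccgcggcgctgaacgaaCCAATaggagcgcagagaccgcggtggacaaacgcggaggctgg
Mcm6, chr1:128359656-128359955, minus strand: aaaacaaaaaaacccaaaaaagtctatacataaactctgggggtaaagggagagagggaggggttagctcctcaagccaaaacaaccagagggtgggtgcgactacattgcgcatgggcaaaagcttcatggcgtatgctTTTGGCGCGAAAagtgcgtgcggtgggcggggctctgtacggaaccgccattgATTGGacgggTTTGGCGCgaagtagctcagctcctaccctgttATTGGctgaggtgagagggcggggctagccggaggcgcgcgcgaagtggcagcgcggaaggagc
2810417H13Rik, chr9:65890073-65890372, plus strand: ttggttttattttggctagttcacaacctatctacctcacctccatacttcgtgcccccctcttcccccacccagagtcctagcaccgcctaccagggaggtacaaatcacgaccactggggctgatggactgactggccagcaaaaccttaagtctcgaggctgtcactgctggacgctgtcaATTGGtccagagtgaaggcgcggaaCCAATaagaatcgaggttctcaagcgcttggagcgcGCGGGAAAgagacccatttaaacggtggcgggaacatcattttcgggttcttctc
Top2a, chr11:99024140-99024439, minus strand: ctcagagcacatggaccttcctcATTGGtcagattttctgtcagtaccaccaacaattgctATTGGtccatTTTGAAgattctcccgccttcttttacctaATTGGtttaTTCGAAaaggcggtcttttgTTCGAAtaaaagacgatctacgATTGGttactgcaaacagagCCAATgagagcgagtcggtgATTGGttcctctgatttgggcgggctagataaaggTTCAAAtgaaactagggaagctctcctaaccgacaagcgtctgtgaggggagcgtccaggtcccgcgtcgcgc
Ube2c, chr2:164769679-164769978, plus strand: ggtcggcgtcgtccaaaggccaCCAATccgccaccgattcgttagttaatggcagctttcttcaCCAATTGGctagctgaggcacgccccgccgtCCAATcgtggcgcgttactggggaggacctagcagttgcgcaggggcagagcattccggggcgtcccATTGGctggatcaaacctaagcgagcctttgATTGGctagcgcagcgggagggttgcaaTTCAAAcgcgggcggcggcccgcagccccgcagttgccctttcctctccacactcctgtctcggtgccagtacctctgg
Cdc20, chr4:118437294-118437593, minus strand: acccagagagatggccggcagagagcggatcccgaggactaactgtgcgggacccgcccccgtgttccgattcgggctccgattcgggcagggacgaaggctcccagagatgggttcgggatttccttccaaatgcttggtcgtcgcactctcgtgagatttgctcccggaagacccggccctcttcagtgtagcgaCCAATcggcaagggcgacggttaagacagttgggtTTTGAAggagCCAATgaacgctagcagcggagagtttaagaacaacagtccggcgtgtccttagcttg

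**Figure D1:**
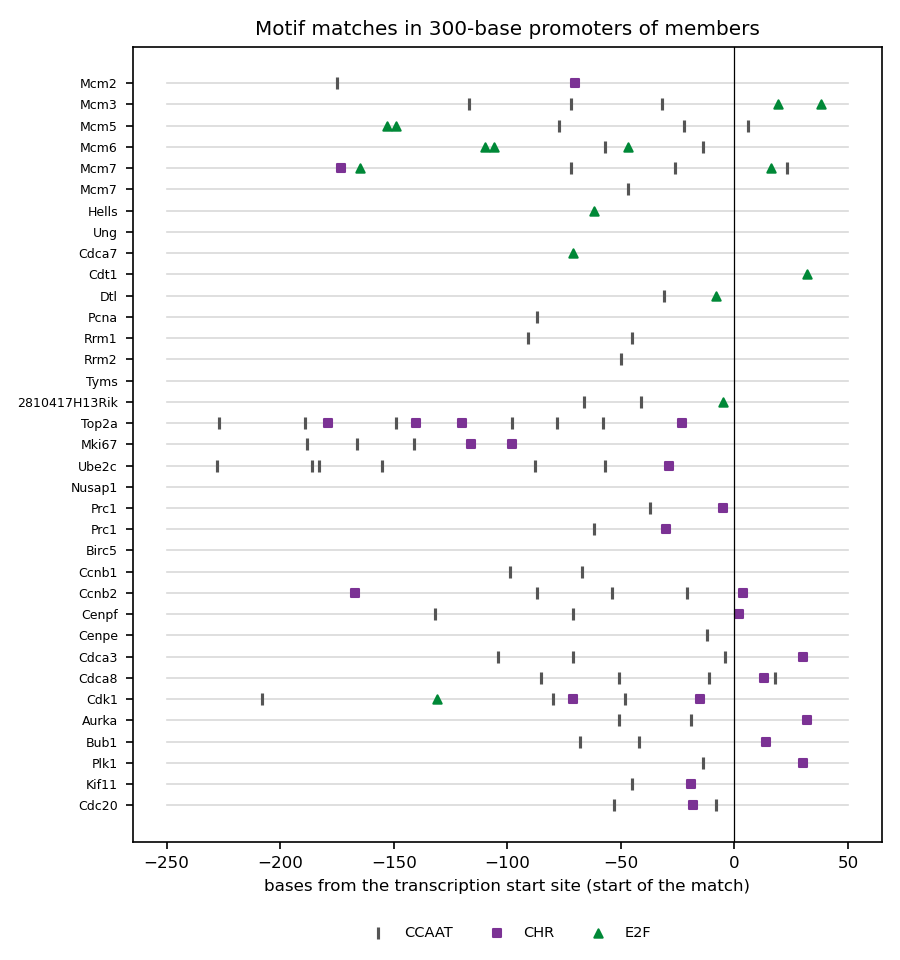
Positions of CCAAT (bars), CHR (squares) and E2F (triangles) matches in the 35 RefSeq promoters of 33 members, with the start of each match in bases from the transcription start site on the x axis and 1 line per promoter. CHR matches lie in 15 of the 19 mitosis promoters and 2 of the 16 replication promoters, whereas E2F matches lie in 9 of the 16 replication promoters and 1 of the 19 mitosis promoters (*Cdk1*).

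Total UMIs per library ranged from 89769386 to 167506186, and 44772 of 52800 barcodes passed the filters on genes, UMIs and mitochondrial share. The shallowest barcode held 4624 UMIs at day 7 and 500 to 502 elsewhere, so the day 7 library lacks shallow cells. Pairs of libraries shared 16 to 31 barcodes. Cells were placed in classes one by one by marker scores that included no member, and 38978 cells received a class, among them 12850 AMs and 7535 IMs. Every one of the 9 AM markers and the 8 IM markers was highest in its own class. Of the classical monocyte markers 3 of 6, and of the cDC2 markers 3 of 5, were. The gate used these same markers, so the ranking and the median marker levels below are not an independent check of the classes. A gate on a score is a range, and 1635 AMs and 1239 IMs did not keep their class at a wider margin between classes. The same held for 500 of 1654 classical monocytes, 238 of 563 cDC2s and 93 of 885 cDC1s. The median AM marker level was 17859 CPM in AMs and 264 CPM in IMs, and the median IM marker level 311 CPM in AMs and 23215 CPM in IMs. Levels are given as counts-per-million (CPM), that is, the share of a gene among all UMIs that the cells of one class hold in one library, from the 3′ ends of transcripts and not divided by length. A cell was called mitosis-positive with at least 3 UMIs from at least 2 mitosis members after it had been thinned at random to 2000 UMIs, and replication-positive in the same way. Intervals cover counting error only. In these summed data, fewer positive cells and less RNA per positive cell are separated only by the cell shares.

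In AMs, members of both roles were abundant in the sham library, low at day 3, nearest to the sham level at day 7 and intermediate at day 14 and day 28. Summed mitosis members stood at 898 CPM in the sham library (95% exact Poisson interval 893 to 904), 107 CPM at day 3 (101 to 113), 675 CPM at day 7, 366 CPM at day 14 and 438 CPM at day 28. Summed replication members stood at 803, 316, 627, 433 and 483 CPM in the same order. At day 3, the mitosis members were therefore lower by a larger factor than the replication members. Mitosis-positive AMs made up 9.49% of 5630 cells in the sham library (95% exact binomial interval 8.73 to 10.3), 1.80% of 668 at day 3 (0.932 to 3.12), 10.95% of 1771 at day 7 (9.54 to 12.5), 5.36% of 1492 at day 14 (4.27 to 6.63) and 6.01% of 3113 at day 28 (5.20 to 6.90). The intervals of the sham and day 7 libraries overlap, those of day 14 and day 28 overlap, and that of day 3 lies below all others. Without thinning, the shares were 24.5%, 6.50%, 22.9%, 21.2% and 15.3%. Replication-positive AMs made up 16.8%, 5.24%, 12.7%, 7.11% and 6.55%.

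Nonclassical monocytes and neutrophils were the planned reference classes, and plasmacytoid dendritic cells were added to them. Nonclassical monocytes held 0 mitosis-positive cells of 548, which allows a share of up to 0.671% by the exact interval. Plasmacytoid dendritic cells held 0 of 417, with a limit of 0.881%. Median depths of nonclassical monocytes and plasmacytoid dendritic cells were 5746 and 9988 UMIs, against 17693 UMIs in AMs. Without thinning, 5 of 559 and 5 of 418 of these cells passed, or 0.894% and 1.20%. Neutrophils held 0 of 1013 in the sham library and 10 of 112 (8.93%) at day 7, where their median depth was 7234 UMIs. In these 10 cells the median AM marker level was 6231 CPM, against 460 CPM in the other 102 neutrophils of day 7. Their median neutrophil marker level was 65543 CPM, against 65218 CPM in the other 102. The source of their AM marker UMIs was not tested. The doublet score marked 1 of the 10.

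Members of the helicase and of origin licensing come first. *Mcm5* was measured at 38.1, 11.5, 27.7, 14.7 and 16.4 CPM in the sham, day 3, day 7, day 14 and day 28 libraries. *Cdt1*, which loads the helicase onto origins, was measured at 47.2, 18.6, 23.6, 18.6 and 25.0 CPM. *Gins2*, a subunit of the active helicase complex, was measured at 16.8, 9.68, 17.8, 9.59 and 8.38 CPM. For *Cdt1* the sham library stood apart from all 4 others, whereas *Gins2* was at a like level in the sham and day 7 libraries.

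*Pcna*, the sliding clamp of DNA polymerases, varied least among the members described one by one, at 161, 114, 107, 123 and 136 CPM, and it had a UMI in 72.5% of AMs at day 3 and 77.6% in the sham library. The nucleotide enzymes varied more. *Rrm2*, the subunit of ribonucleotide reductase made in S phase, was measured at 56.7, 6.64, 40.7, 20.8 and 33.2 CPM, and *Tyms*, thymidylate synthase, at 28.7, 9.68, 19.2, 12.5 and 12.7 CPM. *2810417H13Rik* was measured at 80.8, 10.2, 118, 51.3 and 59.2 CPM. It was the one described member whose day 7 level lay above the sham level with separate counting intervals, 115 to 122 CPM against 79.1 to 82.5. These intervals hold no variation between cells or between libraries. At day 7, 92.6% of its UMIs lay in 312 of 1771 AMs, and the difference was not tested.

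Among the mitosis members, *Top2a* was measured at 113, 10.7, 90.0, 60.4 and 64.1 CPM, and *Mki67*, the proliferation antigen Ki-67, at 109, 11.3, 63.5, 40.2 and 32.1 CPM. The kinase *Cdk1* was measured at 49.5, 9.96, 30.8, 19.0 and 23.2 CPM, and its partner *Ccnb1*, cyclin B1, at 28.0, 2.58, 20.5, 10.3 and 16.6 CPM. Both had their lowest level at day 3. *Birc5*, survivin of the chromosomal passenger complex, was measured at 67.7, 9.04, 57.5, 24.9 and 33.2 CPM. The mitotic kinase *Plk1* was measured at 15.4, 1.20, 12.1, 5.13 and 9.37 CPM, and *Cdc20* at 20.2, 1.94, 11.9, 5.18 and 7.53 CPM. The day 3 values of *Plk1* and *Cdc20* rest on 13 and 21 UMIs.

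**Figure D2:**
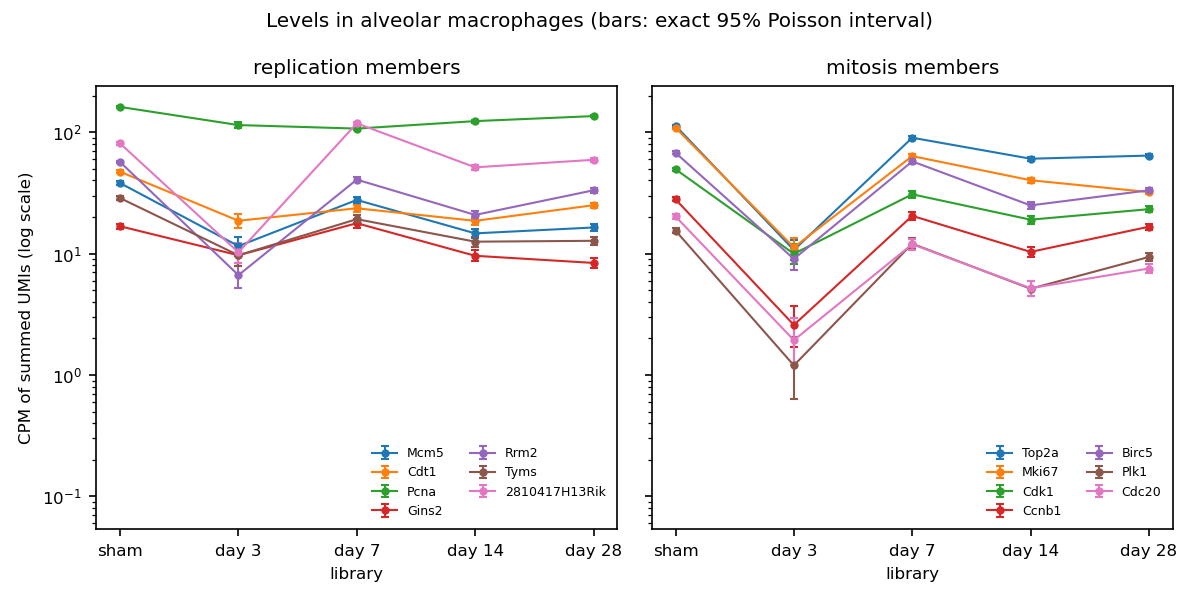
CPM of 14 members in AMs (log axis) by library, with 7 replication members on the left and 7 mitosis members on the right; bars are exact 95% Poisson intervals of 1 library each. All 7 mitosis members are lowest at day 3, where *Top2a* stands at 10.7 CPM against 113 CPM in the sham library, whereas *Pcna* stays between 107 and 161 CPM.

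With 1 library per time point, changes were counted as 2-fold differences among genes of at least 20 CPM in either library. At day 3, 27 of the 29 members at this level were lower than in the sham library and 0 were higher, where 3.08% of the 6176 genes at this level were lower and 4.71% higher. The 2 members not past the limit were *Mcm4*, at 1.98-fold lower, and *Pcna*, at 1.41-fold lower. Of the 9 members under the level, 8 were also more than 2-fold lower by value, and *Gins2* was 1.73-fold lower. *Nusap1*, which bundles spindle microtubules, differed most among the 29, with 38.1 CPM in the sham library and 2.95 CPM at day 3 (12.9-fold), followed by *Ube2c* with 84.4 and 6.92 CPM (12.2-fold) and the cyclin *Ccnb2* with 37.3 and 3.23 CPM (11.5-fold). Helicase subunits differed less, from 1.98-fold lower for *Mcm4* to 3.30-fold lower for *Mcm5*. The median log2 difference of the 29 members was -2.52, against -0.12 for all genes at the level. The day 3 library held 677 AMs, fewer than any other, and their mitosis members rested on 1159 UMIs against 93693 in the sham library.

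At day 7, 0 of 29 members were past 2-fold in either direction (background 2.13% higher and 1.5% lower), with a median log2 difference of -0.45. At day 14, 21 of 29 were lower and 0 higher (background 3.1% higher and 2.99% lower). At day 28, 13 of 29 were lower and 0 higher (background 3.32% higher and 3.59% lower). All of these values share the sham library, so they are not independent of each other.

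Other genes of the cycle were read from lists written beside the members. At day 3, 9 of 16 other replication genes at the level were lower, among them *Tk1*, thymidine kinase, from 31.1 to 4.98 CPM, and *Clspn*, a checkpoint mediator, from 20.3 to 3.23 CPM. Of the other mitosis genes, 12 of 15 were lower, among them *Hmmr*, a spindle-associated protein, from 21.9 to 1.29 CPM, and *Kif23*, a cytokinesis motor, from 50.5 to 7.10 CPM. Neither list held a gene that was higher. Of 7 G1 cyclins and kinases, *Ccnd3* was higher, at 150 CPM against 63.9 CPM, and *Cdk6* and *Cdc25a* were lower. Of 11 cell cycle inhibitors and regulators, *Cdkn1a*, the inhibitor p21, was higher, at 1105 CPM against 387 CPM, as was *Ccng1*, at 163 CPM against 76.2 CPM, and *Rbl1* was lower. At day 7, 0 genes of the 4 lists were past 2-fold. At day 14, 6 of 16 other replication genes and 10 of 15 other mitosis genes were lower, and at day 28, 5 of 16 and 4 of 15 were. At day 28, *Cdkn1a* stood at 217 CPM and *Ccnd3* at 66.1 CPM.

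Within AMs, the members differed in how far they were confined to a few cells. For each member, AMs were called positive from the other 37 members, and the share of its UMIs in these cells was taken. In the sham library, the positive cells were between 19.0% and 21.6% of AMs. They held 86.4% to 97.3% of the UMIs of the mitosis members, with a median of 94.2%, and 50.1% to 95.8% of the UMIs of the replication members, with a median of 61.0%. *Cenpf*, a kinetochore protein, reached 97.3%, and *Mki67* 92.5%. *Pcna* was lowest, at 50.1%, with 359 CPM in positive and 104 CPM in the other AMs. *Mcm3* and *Cdt1* followed, at 51.7% and 52.0%. The ranges of the roles overlapped, because *2810417H13Rik* at 95.8% and *Rrm2* at 93.6% lay among the mitosis members although they act in replication. At day 7 the medians were 93.9% and 63.8%, and at day 28 they were 90.1% and 55.9%. At day 3 they were lower, at 72.0% and 37.5%. Mitosis members then ranged from 25.0% for *Aurkb*, on 28 UMIs, to 95.8% for *Cenpf*, on 48 UMIs. Of 668 AMs at day 3, 48 were positive for the members other than *2810417H13Rik* and held 92.8% of its UMIs. For *Pcna* the positive set was smaller, with 31 cells that held 14.7% of its UMIs.

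**Figure D3:**
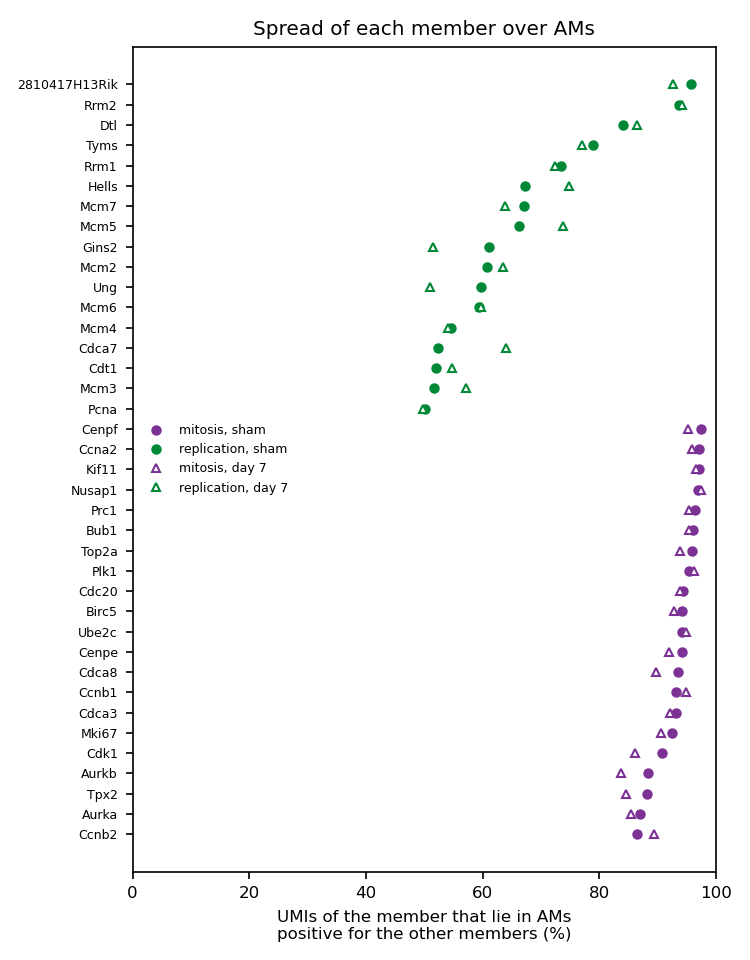
Share of the UMIs of each member (x axis, percent) that lie in AMs positive for the other 37 members, in the sham library (filled circles) and at day 7 (open triangles), for replication (green) and mitosis members (purple). Mitosis members lie between 83.8% and 97.4%, and replication members spread from *Pcna* at about 50.1% to *2810417H13Rik* at 95.8% in the sham library.

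In the sham library, 4345 of 5630 thinned AMs had no UMI of a mitosis member, 749 had 1 or 2, 210 had 3 to 9 and 326 had at least 10, up to 40. At day 7, 118 AMs had 3 to 9 and 76 at least 10. At day 3, 6 had 3 to 9 and 6 at least 10. Mitosis-positive AMs held more UMIs than the others in 4 libraries, with medians of 24239 against 16820 in the sham library, and fewer at day 3, with 10683 against 14672 over 12 positive cells. Predicted doublets made up 13.5% of positive and 11.5% of other AMs in the sham library, and 0 of 80 positive AMs at day 14. The median AM marker level was lower in positive than in other AMs of every library, from 17817 against 21055 CPM in the sham library to 12015 against 14613 CPM at day 14. Of positive AMs in the sham library, 343 were positive for both roles and 191 for mitosis members only, while 600 AMs were positive for replication members only.

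IMs carried the members at high levels at day 7. Their summed mitosis members stood at 852 CPM in the sham library (56 cells), 99.2 CPM at day 3, 679 CPM at day 7, 163 CPM at day 14 and 82.6 CPM at day 28. Mitosis-positive IMs made up 5.77% of 52 cells in the sham library (1.21 to 15.9), 0.374% of 803 at day 3, 10.8% of 2363 at day 7 (9.61 to 12.2), 1.79% of 1848 at day 14 and 0.826% of 2299 at day 28. At day 7 the intervals of IMs and AMs overlapped, at 10.8% and 10.95%, and *Mki67* stood at 68.7 CPM in IMs and 63.5 CPM in AMs. The doublet score marked 9.77% of positive IMs at day 7, but 16 of 33 at day 14, 13 of 19 at day 28, 3 of 3 at day 3 and 2 of 3 in the sham library. Without predicted doublets the shares were 2.04%, 0%, 10.4%, 1.03% and 0.301%. At day 7, which holds 256 of the 314 positive IMs, the median IM marker level was 15089 CPM in positive and 22512 CPM in other IMs, and the median classical monocyte marker level 342 and 303 CPM. The IM marker level was also lower in positive IMs at day 14, day 28 and in the sham library, and higher in the 3 positive IMs of day 3. Whether doublets account for the positive IMs outside day 7 was not tested.

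**Figure D4:**
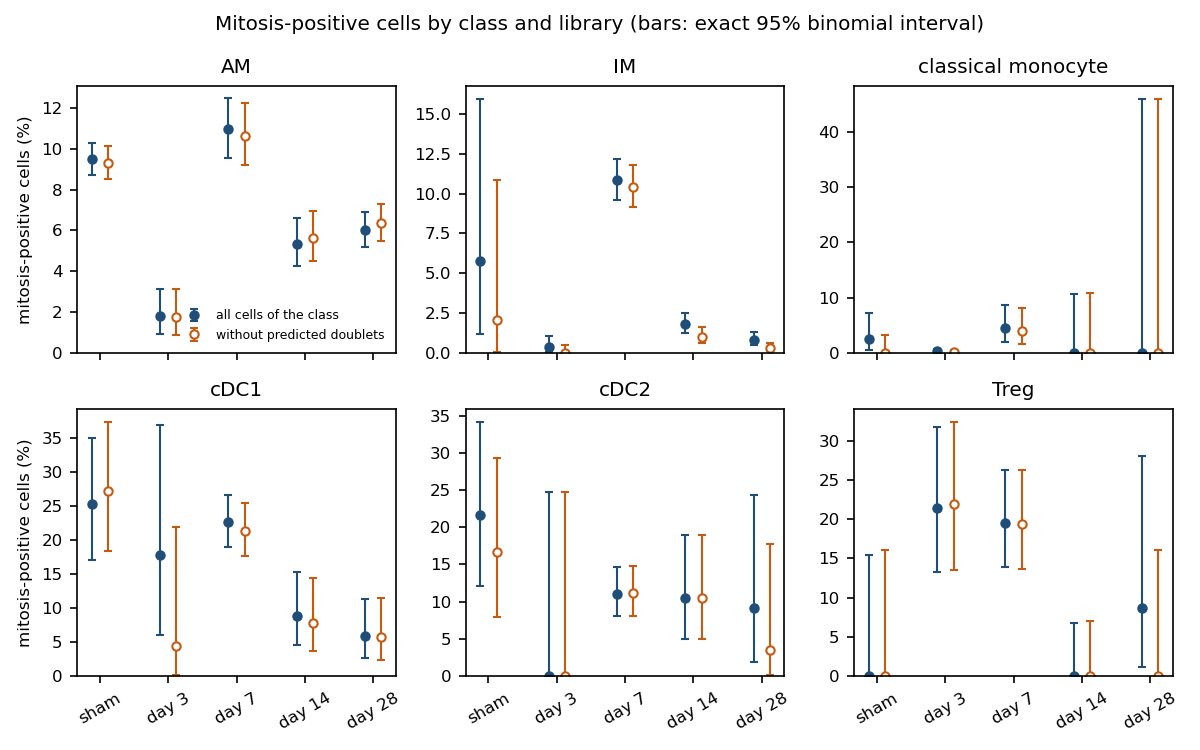
Mitosis-positive cells (percent, each panel with its own axis from 0) by library for 6 classes, over all thinned cells (filled) and without predicted doublets (open), with exact 95% binomial intervals of 1 library each. AMs and IMs lie close to each other at day 7, at 10.95% and 10.8%, whereas at day 28 AMs stand at 6.01% and IMs at 0.826%. Intervals are wide for classes with few cells, such as classical monocytes at day 28 (6 cells).

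To ask which macrophage class carried more of the members, AMs and IMs were compared within the 5 libraries on summed UMIs by the quasi-likelihood test of edgeR, with library as a block and Benjamini-Hochberg adjustment over 14032 genes. Of 38 members, 10 were higher in AMs and 0 lower, where 18.7% of all genes tested were higher and 19% lower. These were 9 of the 17 replication members and, of the 21 mitosis members, *Tpx2*, a spindle assembly factor. The median log2 fold of the members was 0.68, against -0.03 for all genes. *Rrm2* was measured at 56.7, 6.64, 40.7, 20.8 and 33.2 CPM in AMs and 35.1, 3.43, 26.1, 7.01 and 4.47 CPM in IMs, in the order sham to day 28. AMs were the higher in 5 of 5 libraries, with a log2 fold of 1.27 (SE 0.32, edgeR adjusted p = 0.0167). *Dtl*, which targets *Cdt1* protein for destruction in S phase, had a log2 fold of 1.25 (SE 0.28, edgeR adjusted p = 0.0101). It was higher in AMs in 5 of 5 libraries. Values ran from 1.75 against 0.897 CPM at day 3 to 14.8 against 2.42 CPM in the sham library. The sham value in IMs rests on 2 UMIs in 1 cell (interval 0.293 to 8.74 CPM). *Rrm1*, the large subunit of ribonucleotide reductase, had the smallest adjusted p among the members (log2 fold 0.96, SE 0.145, edgeR adjusted p = 0.00212). The other called members were *Mcm2*, *Mcm3*, *Mcm4*, *Mcm7*, *Cdt1* and *Pcna*. For *Mki67* the log2 fold was 0.50 (SE 0.34, edgeR adjusted p = 0.285) and AMs were the higher in 3 of 5 libraries.

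Without predicted doublets, 25 members were higher in AMs and 0 lower, and the median log2 fold was 1.15. Without the library block 1 member was called, and without day 14 there were 6. Of the other lists, 13 of 36 other replication genes and 11 of 38 other mitosis genes were higher in AMs and 0 lower, among them *Foxm1*, at a log2 fold of 1.39. The G1 cyclins parted, with *Ccnd2* higher in AMs (log2 fold 3.44, SE 0.19, edgeR adjusted p = 5.37e-05) and *Ccnd1* lower (log2 fold -3.31, SE 0.71, edgeR adjusted p = 0.00942).

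AMs were also compared with classical monocytes, in the 4 libraries with at least 20 cells of both, where the day 14 library held 34 monocytes. Of 38 members, 23 were higher in AMs and 0 lower, where 17.2% of 12430 genes were higher and 14.8% lower. The called members were 12 of 17 replication and 11 of 21 mitosis members. *Mcm2*, a helicase subunit, was measured at 36.6, 14.0, 26.6 and 16.6 CPM in AMs of the sham, day 3, day 7 and day 14 libraries and at 5.68, 3.95, 6.16 and 2.85 CPM in monocytes (log2 fold 2.04, SE 0.27, edgeR adjusted p = 0.000313). The CPM values of the groups did not overlap, but the lowest, 2.85 CPM, comes from the 34 monocytes of day 14. *Ung*, the uracil-DNA glycosylase, had a log2 fold of 1.69 (SE 0.42, edgeR adjusted p = 0.0114), but rests on 5, 16, 3 and 0 UMIs in the monocytes of these libraries. *Mcm7* had a log2 fold of 1.60 (SE 0.24, edgeR adjusted p = 0.000697) and was measured at 17.1 against 5.17 CPM at day 3. For *Aurkb*, *Aurka* and *Cdc20* the log2 folds were -0.14, -0.02 and 0.26, none of them called. Mitosis-positive monocytes made up 3 of 118 cells in the sham library, 4 of 1285 at day 3, 8 of 178 at day 7 and 0 of 33 at day 14. Without predicted doublets, these counts of monocytes were 0 of 114, 2 of 1206, 7 of 174 and 0 of 32. Leaving out the sham library left 15 members called, leaving out day 7 left 14, and without the library block 6 were called. With the wider gate margin 18 were called.

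Among dendritic cells, the shares were high in both conventional types and low in mature dendritic cells, at 1.13% to 2.27% in 4 libraries and 0.385% at day 28. Conventional dendritic cells type 1 (cDC1), which present antigen to CD8 T cells, were mitosis-positive in 25.3% of 99 cells in the sham library (17.1 to 35.0), 17.9% of 28 at day 3, 22.6% of 495 at day 7 (19.0 to 26.6), 8.87% of 124 at day 14 and 5.88% of 136 at day 28. Their median depths of 15500 to 26072 UMIs stood beside 14547 to 23010 UMIs in AMs. At day 3, 4 of the 5 positive cDC1s were predicted doublets. cDC2s, which prime CD4 T cells, were positive in 21.7% of 60 cells in the sham library, 0 of 13 at day 3, 11.1% of 371 at day 7, 10.5% of 86 at day 14 and 9.09% of 33 at day 28. When predicted doublets were removed, 16.7% of 54 cDC2s were positive in the sham library, 11.1% of 369 at day 7 and 1 of 29 at day 28. Without thinning, the shares ranged from 14.0% to 39.3% in cDC1s and from 15.2% to 38.3% in cDC2s.

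cDC1s and cDC2s were compared in 4 libraries, without day 3. Of 38 members, 2 were higher in cDC1s and 0 lower, where 10% of 9764 genes were higher and 9.83% lower. *Hells*, a chromatin remodeller, was measured at 38.2, 28.5, 18.6 and 22.6 CPM in cDC1s of the sham, day 7, day 14 and day 28 libraries and 25.8, 16.5, 10.6 and 6.64 CPM in cDC2s (log2 fold 0.87, SE 0.18, edgeR adjusted p = 0.0075). *Mcm6* was measured at 70.9, 55.5, 27.5 and 24.0 CPM against 54.6, 40.6, 23.9 and 19.9 CPM (log2 fold 0.42, SE 0.13, edgeR adjusted p = 0.0464). Both were higher in cDC1s in 4 of 4 libraries. The median log2 fold of the members was -0.06. Without day 7, 5 members were lower and 1 higher, and without a filter on low counts 5 were lower and 3 higher. With the wider gate margin 2 were higher and 0 lower, and the cDC2s of day 7 fell from 371 to 195.

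Regulatory T cells (Tregs), which restrain other T cells and were gated by *Foxp3*, held their mitosis-positive cells mainly at day 3 and day 7. In the sham library 0 of 22 were mitosis-positive (upper limit 15.4%), 18 of 84 were at day 3 (21.4%, 13.2 to 31.7), 34 of 174 at day 7 (19.5%, 13.9 to 26.2), 0 of 53 at day 14 (upper limit 6.72%) and 2 of 23 at day 28. Both positive Tregs of day 28 were predicted doublets, and 0 of 18 were at day 3 and 2 of 34 at day 7. The other CD4 T cells were positive in 1.89%, 2.04%, 11.5%, 2.55% and 0% of cells, and CD8 T cells in 1.11%, 5.72%, 2.71%, 1.96% and 1.84%. At day 3, median depth was 7770 UMIs in Tregs and 6359 in other CD4 T cells, and the shares without thinning were 37.9% and 8.16%.

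Within the 5 libraries, 13 of 38 members were higher in Tregs than in other CD4 T cells and 0 lower, where 5.68% of 8792 genes were higher and 5.77% lower. They were 8 replication members and 5 mitosis members. *Aurkb*, the kinase of the chromosomal passenger complex, was measured at 9.02, 70.5, 37.4, 3.00 and 66.1 CPM in Tregs and 10.3, 5.68, 24.0, 6.86 and 0 CPM in other CD4 T cells, and was the higher in Tregs in 3 of 5 libraries (log2 fold 1.78, SE 0.53, edgeR adjusted p = 0.0338). *Aurka*, the spindle pole kinase, was measured at 0, 44.9, 17.9, 0 and 46.2 CPM against 3.45, 4.74, 10.4, 5.14 and 1.69 CPM (log2 fold 1.76, SE 0.56, edgeR adjusted p = 0.0457). *2810417H13Rik* was measured at 27.1, 421, 248, 95.9 and 317 CPM against 58.7, 56.8, 173, 60.0 and 2.54 CPM (log2 fold 1.60, SE 0.46, edgeR adjusted p = 0.0249). In all of these genes, Tregs stood above the other CD4 T cells at day 3, day 7 and day 28 and below them in the sham library, and at day 14 only *2810417H13Rik* was higher in Tregs. Without day 3, 1 member was called, without day 28 there were 6 and without day 14 there were 20. DESeq2 called 2 members, the wider gate 5 and the fit with no library block 1. The 29 Tregs of day 28 hold 151359 UMIs in all, and the 48 UMIs of *2810417H13Rik* there include those of the doublets.

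The paper used the reporter to trace monocytes and the macrophages derived from them, but its UMIs were also found in other classes. AMs with at least 3 reporter UMIs after thinning (reporter-high) were compared with AMs with none (reporter-low). By the same limit, 72.3% of neutrophils and 46.6% of classical monocytes were reporter-high in the sham library. At day 14 the shares were 8.76% of 708 neutrophils and 3.03% of 33 monocytes. At day 28 they were 1.91% of 314 neutrophils and 0 of 6 monocytes. In these later libraries the limit thus marked few cells of either class. In the paper, diphtheria toxin given under the same driver also affected neutrophils. Reporter-high cells made up 0.551% of AMs in the sham library, 13.5% at day 14 and 10.1% at day 28, against 0.943% (1 of 106), 2.04% (4 of 196) and 0.778% (2 of 257) of CD4 T cells, at median depths of 17248, 23239 and 17858 UMIs against 5254, 5490 and 4296. The sham share was not above that in CD4 T cells and was read as background. In the sham library the limit was also passed by 1.11% of 180 CD8 T cells and 0.27% of 371 B cells. It was passed by 0 of 139 NK cells and 0 of 99 cDC1s. At least 1 reporter UMI was present in 19.6% of AMs and 18.9% of CD4 T cells in the sham library, and 0 UMIs in a thinned cell does not place it outside the lineage. In the sham library 0 of 31 reporter-high AMs were mitosis-positive (upper limit 11.2%), against 10.5% of 4526 reporter-low AMs. Without predicted doublets, 20 of these reporter-high and 4027 of these reporter-low AMs remained. At day 14 the shares were 5.94% of 202 (3.11 to 10.1) and 4.19% of 930 (3.00 to 5.69), at median depths of 25652 and 22944 UMIs, and at day 28 they were 2.54% of 315 (1.10 to 4.94) and 5.75% of 2158 (4.80 to 6.81). The direction thus differed between day 14 and day 28, and the intervals overlap in each. AMs with 1 or 2 reporter UMIs were positive in 8.06% of 360 at day 14 and 8.59% of 640 at day 28. The libraries of day 3 and day 7 held 5 and 9 reporter-high AMs and were not used.

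The 3 remaining libraries were sham, day 14 and day 28, so the sham cells read as background stayed in the fit. Only the day 14 and day 28 libraries held a reporter-high share above that of CD4 T cells. At day 14, 12.9% of 124 cDC1s and 6.09% of 197 epithelial cells were reporter-high as well. The day 14 share of AMs, 13.5%, thus lay close to that of cDC1s. At day 28 the shares were 0.735% of 136 cDC1s and 1.82% of 110 epithelial cells. Over these 3 libraries, 0 of 38 members were called in either direction by edgeR. Of all 11783 genes, 0.0849% were higher and 0.11% lower. Among the members, 0 had an unadjusted p under 0.05. DESeq2 called 0, with 2 members at an unadjusted p under 0.05. The median log2 fold of the members was -0.33 by edgeR and -0.82 by DESeq2. With the wider gate margin 1 member was lower by edgeR, 14 of 38 had an unadjusted p under 0.05 and the median was -0.61. Without a library block the median was -0.74. *Mki67* had a log2 fold of -0.38 (SE 0.41) and *Pcna* of -0.05 (SE 0.11). A library could not be left out, because fewer than 3 would remain. The folds ran from -1.01 for *Bub1*, a spindle checkpoint kinase (SE 0.43, edgeR adjusted p = 0.568), to 0.17 for *Mcm6* (SE 0.23), and a test that calls no member does not show that the groups divide alike. In the other lists 0 genes were called.

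**Figure D5:**
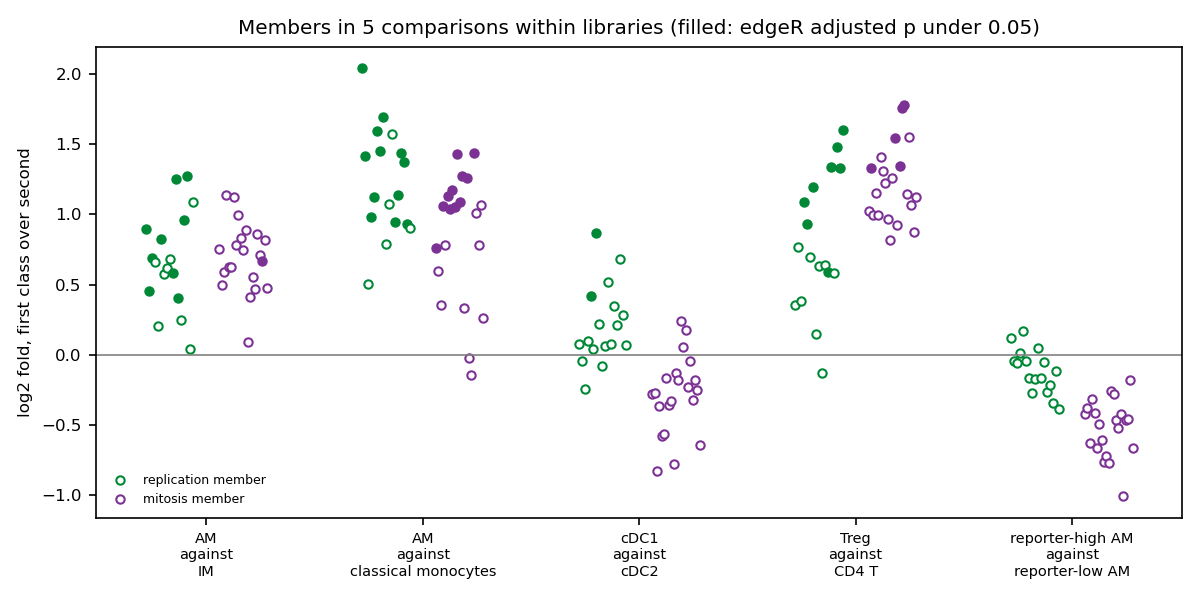
Log2 fold of each of the 38 members (y axis, first class over second) in 5 comparisons within libraries, with replication members in green and mitosis members in purple; filled points have an edgeR adjusted p under 0.05. Members called are 10, 23, 2, 13 and 0 from left to right, all of them higher in the first class.

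Across 93 sums of a class in a library, the genes whose log2 CPM followed the summed members most closely outside the list were *Smc2*, a condensin subunit (Pearson r 0.91), *Ncapg*, another condensin subunit (0.90), and *Sgol1*, a protector of centromere cohesion (0.89), followed by *Depdc1a*, *Cep55*, *Shcbp1*, *Kif20a*, *Aspm*, *Stmn1* and *Kif22* (0.88 to 0.86), among 12292 genes. These sums share libraries and depths, so r is a description. Each member was also set against the sum of the others. Mitosis members lay between 0.77 for *Aurka* and 0.92 for *Kif11*, a spindle motor. Replication members lay between 0.37 for *Ung* and 0.89 for *2810417H13Rik*, with *Cdt1* at 0.42 and *Pcna* at 0.52. The level of 12 of the 17 replication members was highest in Tregs of day 3, and that of 13 of the 21 mitosis members in endothelial cells of day 14, a sum of 62 cells, of which 22 could be thinned and 4 were mitosis-positive. *Cdt1* was the one member highest in AMs of the sham library, and *Mki67* was highest in cDC1s of the sham library, at 250 CPM.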

How the data were processed

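Lung cells (genotype *Ms4a3-CreER;R26-tdT*) were dissociated, and 10x 3′ libraries were made after PBS and at 4 times after bleomycin. Per the labels, the deposited counts are UMI counts per gene and barcode that the authors made with Cell Ranger 6.0.0 on mm10, while the file headers name software version 3.1.0. Each library is 1 sample at its own time point. With library as a block, p-values measure only how the difference between classes varied across these libraries. That spread mixes time with other differences between libraries. Total counts per library, 89769386 to 167506186 UMIs, limit the precision.

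The filters kept 300 to 8000 genes and 800 to 60000 UMIs per barcode, with a mitochondrial share under 15%. A cell took the class of its highest marker score if the score was at least 0.25 with at least 3 markers and a margin of 0.1, and T cells were divided by *Foxp3*, *Cd4* and *Cd8a*. Doublets were kept, and removal of Scrublet doublets (scanpy 1.11.5, 0.8% per 1000 barcodes) was an alternative. Cells were thinned to 2000 UMIs, and shallower cells were left out. Exact binomial and Poisson intervals cover counting error only.

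UMIs summed per class and library (at least 20 cells of both classes, in at least 3 libraries) were tested two-sided with edgeR 4.0.16 in R 4.3.3 (filterByExpr, TMM, quasi-likelihood, library as a block, Benjamini-Hochberg over all genes tested, adjusted p under 0.05), with DESeq2 1.42.0 as an alternative. Changes with time, with 1 library each, were counted as 2-fold differences in genes of at least 20 CPM, and log2 medians used a pseudocount of 1 CPM. The steps were tested on simulated data. Named genes were 14 members picked by role, the 3 called members with the largest log2 fold in each comparison, any members not called where they numbered 5 or fewer and the 10 genes most like the members, and further genes were named after their values were seen. Members and lists were chosen with earlier results of these data known. Numerical work used Python 3.11.15, numpy 2.4.6, scipy 1.17.1 and pandas 2.3.3.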

Additional observations from a re-analysis of the deposited data

How the results depend on the processing

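Of 451 values of called members under the alternatives, 324 kept their call, 127 lost it with the same direction and 0 changed sign. The order of the AM shares of sham and day 7, and of day 14 and day 28, turned without thinning. Members of cDC1s against cDC2s went from 2 higher and 0 lower to 1 higher and 5 lower without day 7. The mitosis-positive share of AMs at sham, day 7, day 14 and day 28 was 11.7%, 13.1%, 7.29% and 7.31% when cells were thinned to 4000 UMIs. Without thinning it was 24.5%, 6.50%, 22.9%, 21.2% and 15.3% from sham to day 28. With 2 UMIs it was 11.4% (sham), 12.8% (day 7) and 6.94% (day 28), and with 5 UMIs 8.17%, 8.30% and 4.59%. Members higher in AMs than IMs numbered 1 with no library term, 25 without doublets and 6 to 11 leaving out 1 library. Against classical monocytes they numbered 6 with no library term and 14 to 27 leaving out 1 library. Members higher in cDC1s than cDC2s numbered 1 by DESeq2, 0 with no library term, 4 without doublets and 1 to 2 leaving out 1 library, and those lower numbered 5 with no filter on low counts and 0 to 5 leaving out 1 library. Members higher in Tregs numbered 2 by DESeq2, 30 with no filter on low counts, 1 with no library term, 5 with the wider gate and 1 to 20 leaving out 1 library. In reporter-high AMs, 1 member was lower with the wider gate. Members 2-fold lower in AMs numbered 8, 5 and 4 at day 3, day 14 and day 28 with a level of 50 CPM, where 9 members remained, and 1 at day 7 with a level of 5 CPM. The cause of these differences was not tested, apart from the fewer members at a level of 50 CPM. The class comparisons pair classes within libraries through the library term, and their values without it are given above. Between time points, no paired analysis was possible because each group has 1 library. No library was left out of the reporter comparison, since fewer than 3 would remain. Depth limits classes with few cells, such as 6 classical monocytes at day 28.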
